A study of Mus musculus with 12 samples.

Results

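Ly6 genes encode small cysteine-rich proteins that most members of the family hold on the outer face of the cell by a glycosylphosphatidylinositol (GPI) anchor. The family genes described here were chosen by gene name and are Ly6a, Ly6c1, Ly6c2, Ly6d, Ly6e and Ly6k, 6 of the 41128 genes in the deposited table. They were measured by RNA sequencing of ribosomal RNA-depleted libraries in spleen lymphocytes of mice of the strain C57BL/6J at an age of 6 to 8 weeks. The 4 groups of 3 libraries are resting B cells lacking CD43 from females, the same cells from males, naive CD4+ T cells from females and the same cells from males. The T cells were sorted as CD62L high, CD44 low and CD25 negative after bead enrichment. No group carries a treatment or an engineered allele. The 3 libraries of a group are labelled biological replicates. The study describes pooled mice for the methylation libraries of these cell populations but not separately for RNA, so p-values measure only how far these libraries spread. Groups were compared to ask which family genes differ between the lymphocytes and which differ between the sexes.

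The fold of these proteins, the LU domain, is held together by disulfide bonds and is shared with the urokinase receptor. In blood cells the family is known mainly through antibodies. Ly6a encodes Sca-1, an antigen of stem cells and of lymphocytes that interferons raise. Ly6c1 and Ly6c2 encode the near-identical forms of Ly-6C, a marker of inflammatory monocytes that some T cells also carry. Ly6d encodes ThB, used to mark commitment to the B lineage. Ly6e encodes TSA-1 (also Sca-2), a widely expressed and interferon-induced protein. Ly6k is known from the testis, where it takes part in sperm function.

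All 6 genes lie on mouse chromosome 15 (GRCm38) and are protein-coding. Their order along it is Ly6d (74762056 to 74763620), Ly6k (74796874 to 74799986), Ly6e (74955051 to 74959905), Ly6a (74994877 to 74998031), Ly6c1 (75044018 to 75048830) and Ly6c2 (75108158 to 75111970). Ly6e is on the plus strand and the others are on the minus strand.

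Ly6c1 and Ly6c2 are shown base by base because their expression went in opposite directions although their sequences are nearly the same. Their coding regions, each 396 bases long, were identical at 387 positions (97.7%) and had no gaps. The first 300 coding bases of each are printed here from the start codon, joined over the exons, from the GENCODE M21 transcripts of GRCm38. Capitals mark the 7 bases that differ in this stretch.
Ly6c1: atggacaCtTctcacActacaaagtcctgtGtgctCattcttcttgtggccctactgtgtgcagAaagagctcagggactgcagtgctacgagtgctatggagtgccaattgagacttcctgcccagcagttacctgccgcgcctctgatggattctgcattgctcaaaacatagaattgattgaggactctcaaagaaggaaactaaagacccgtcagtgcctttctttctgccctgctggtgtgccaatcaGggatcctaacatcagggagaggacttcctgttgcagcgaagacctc
Ly6c2: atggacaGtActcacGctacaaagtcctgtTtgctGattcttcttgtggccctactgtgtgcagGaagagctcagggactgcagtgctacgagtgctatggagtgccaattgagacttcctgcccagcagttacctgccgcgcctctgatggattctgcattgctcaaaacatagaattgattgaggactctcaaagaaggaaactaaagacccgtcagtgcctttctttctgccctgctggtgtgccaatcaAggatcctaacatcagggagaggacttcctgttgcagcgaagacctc

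Counted from 1 at the A of the start codon and written from Ly6c1 to Ly6c2, the 9 differences of the whole coding region are C8G, T10A, A16G, G31T, C36G, A65G, G254A, T327C and G376A. Ly6a was the nearest other member, with 82.5% of alignment columns identical to Ly6c1 and 82.3% to Ly6c2. The coding regions of Ly6d, Ly6e and Ly6k were identical to that of Ly6c1 in 53.4%, 54.3% and 52.5% of columns. Of all stretches of 75 bases in the transcripts of Ly6c1, 14.7% also occur in a transcript of Ly6c2, and 9.46% of those of Ly6c2 occur in one of Ly6c1. The read length and the treatment of reads that match several genes are not given in the sources used here, so the division of reads between Ly6c1 and Ly6c2 is uncertain. Ly6a is less exposed, with 5.87% of its stretches of 75 bases and 15.03% of those of 50 bases also in Ly6c1, but its division from the pair is uncertain too. Ly6d, Ly6e and Ly6k shared no stretch of 50 bases or more with another gene.

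The start regions of the pair are less alike than their coding regions. They are printed from RefSeq (GRCm38.p6) as 250 bases before to 50 bases after the start site on the minus strand, chr15:75048788-75049087 for Ly6c1 and chr15:75111922-75112221 for Ly6c2. Where both run, 214 of 286 alignment columns (74.8%) were identical, and capitals mark bases that differ or have no partner within that stretch.
Ly6c1 promoter: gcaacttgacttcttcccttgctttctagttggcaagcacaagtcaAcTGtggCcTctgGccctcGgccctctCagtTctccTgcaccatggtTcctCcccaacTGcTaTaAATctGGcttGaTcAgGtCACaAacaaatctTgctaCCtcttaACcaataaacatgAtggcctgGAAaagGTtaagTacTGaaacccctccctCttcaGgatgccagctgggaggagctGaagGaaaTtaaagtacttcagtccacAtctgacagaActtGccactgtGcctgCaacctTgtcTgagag
Ly6c2 promoter: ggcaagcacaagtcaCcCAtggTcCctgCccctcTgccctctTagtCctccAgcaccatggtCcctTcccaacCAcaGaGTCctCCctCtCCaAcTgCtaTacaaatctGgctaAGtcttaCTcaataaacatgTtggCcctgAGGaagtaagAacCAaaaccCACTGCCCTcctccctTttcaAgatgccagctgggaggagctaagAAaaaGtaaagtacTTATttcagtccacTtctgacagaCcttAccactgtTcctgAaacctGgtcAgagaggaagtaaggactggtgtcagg

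These windows were searched on both strands for 6 short motifs. GAGGAAGT is a form of the site of the B cell and myeloid factor PU.1. It occurred 2 times in the Ly6c2 window, starting at -108 and at 26 relative to the start site, and 0 times in that of Ly6c1. The match at 26 runs past the place where the aligned Ly6c1 window ends, so that window could not hold it. Only the match at -108 lies where both windows run. GAGGAAGT occurred in 3.28% of the start windows of 27025 genes. TGTGGT, a core site of the RUNX factors, occurred 1 time in the Ly6c2 window, at -179 on the opposite strand, and in 16.9% of all windows. The letters TTCNNNGAA (gamma-activated site), GAAANNGAA (interferon response element core), CCCNNGGG (EBF1) and CTTTGAA (TCF and LEF) were in neither window and in 8.47%, 8.57%, 13.4% and 5.27% of all windows. A match describes letters only.

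Expression is given as adjusted TPM, a length-corrected share of transcripts that the authors rescaled between libraries, and each value comes with a deposited lower and upper bound. Because it is corrected for length, levels can be compared between genes, though less surely between Ly6a, Ly6c1 and Ly6c2, whose division of reads is uncertain. Totals ran from 561020 to 1453940, the sequencing depth is unknown, and 12520 genes with at least 1 adjusted TPM in at least 3 libraries were tested. All 6 members passed, Ly6d only through the B cells and Ly6c1 only through the T cells, so that these genes had to differ to be tested. The labelled cell types were borne out by their markers, since 5 B cell genes summed to 2610 to 2972 in B cells against 5.34 or less in T cells, and 5 T cell genes to 1017 to 1194 in T cells against 14.1 or less in B cells. The T cell libraries numbered 6 stood apart. Their sums of 4 regulatory T cell genes were 34.2 in the female and 28.6 in the male library, against 3.32 to 5.29 in the other T cells, although the sort was for cells without CD25. Their sums of 6 memory or activation genes were 29.9 and 26.5, against 12.7 to 17.8. Of these genes, Il2rb ran from 3.92 to 16.8 over the T cell libraries, Cd44 from 5.89 to 10.7 and Eomes from 1.06 to 2.88. Cxcr3, Tbx21 and Ccl5 were at most 0.660 in T cells, so few genes carried these sums. Male T cell 6 also had the largest total, 37.4% of which came from the gene Yam1. In female B cell 1 Yam1 made up 32.2% of the total. Fold changes and sex differences that rest on the T cell libraries numbered 6 are given with and without them.

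In B against T cells, 5 of the 6 members were past an adjusted p of 0.05 in limma with Benjamini-Hochberg adjustment over all tested genes, against 73.0% of those genes. Higher in B cells were 4 members, among them Ly6d and Ly6e, against 31.4% of tested genes. Higher in T cells was 1 member, Ly6c1, against 41.6%. The direction over all genes depended on the scaling, since 3926 were higher in B and 5208 in T cells as deposited, 4536 and 4514 with median-ratio scaling, and 5087 and 2021 when all libraries were brought to the same total of 1000000. For 3 of the 6 members (Ly6c1, Ly6d and Ly6e) no B cell library fell within the range of the T cells or the reverse, against 53.9% of tested genes. Ly6a and Ly6c2 overlapped as deposited and with median-ratio scaling, and did not with equal totals. The share of members called was therefore near that of all genes. Fold changes are differences of log2(adjusted TPM + 1), which understates those of low values. In bulk RNA, fewer cells that express a gene and less of its RNA in each cell cannot be told apart.

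**Figure D1:**
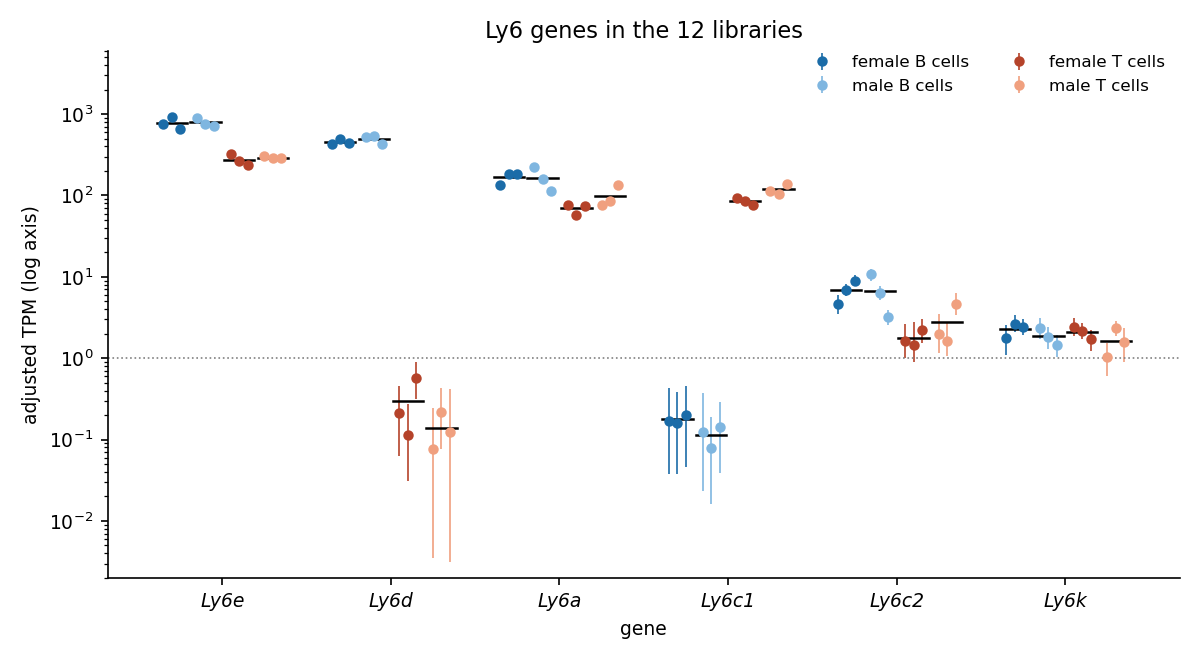
Adjusted TPM (log axis) of the 6 Ly6 genes in the 12 libraries. Points are libraries, thin bars run from the deposited lower to upper bound, black lines are group means (n = 3) and the dotted line is the filter value of 1. The B cells had Ly6d between 426 and 533 and Ly6c1 no higher than 0.202, and the T cells had Ly6c1 between 76.9 and 138 and Ly6d no higher than 0.566.

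Ly6d, the B lineage marker, had 426, 498 and 446 adjusted TPM in female B cells 1 to 3 and 519, 533 and 431 in male B cells 1 to 3. In T cells it had 0.213, 0.114 and 0.566 in female libraries 4 to 6 and 0.0757, 0.221 and 0.125 in male libraries 4 to 6. All B cell libraries were far above all T cell libraries, and female T cell 6 was the highest of the T cells. The B cell mean was 476 ± 46.8 (SD, n = 6) and the T cell mean 0.219 ± 0.179 (SD, n = 6). The log2 fold change was 8.62 (SE 0.09, adjusted p = 1.9e-16 in limma). Values in T cells carried wide bounds, and the lowest lower bound of a B cell library (413.5) was 459.8 times the highest upper bound of a T cell library (0.899).

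The low level of Ly6d in T cells was highest where B cell genes were highest. The sum of the 5 B cell genes was 5.34 in female T cell 6 and 0.900 to 2.60 in the other T cell libraries, and 3 of these 5 genes reached 1 adjusted TPM in female T cell 6, against 0 or 1 in the others. The part of B cell RNA in the Ly6d values of T cells was not tested. Without both libraries numbered 6 the log2 fold change of Ly6d was 8.68.

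Ly6c1, a gene for Ly-6C, had the opposite pattern. In T cells it had 93.9, 86.2 and 76.9 adjusted TPM in females 4 to 6 and 113, 104 and 138 in males 4 to 6. In B cells it had 0.170, 0.159 and 0.202 in females 1 to 3 and 0.124, 0.0791 and 0.142 in males 1 to 3. Every T cell library was above every B cell library. The B cell mean was 0.146 ± 0.0421 (SD, n = 6) and the T cell mean 102 ± 21.8 (SD, n = 6). The log2 fold change was -6.47 (SE 0.07, adjusted p = 4.5e-16 in limma). The lowest lower bound in T cells (72.4) was 157.9 times the highest upper bound in B cells (0.458). Monocytes are also known for Ly-6C. The sum of 5 monocyte and macrophage genes was 2.80 to 6.39 in T cells and 10.7 to 15.03 in B cells, where most of it was Lyz2 (mean 8.89 against 0.795), while Itgam had means of 1.41 in T and 1.25 in B cells. The part of monocyte RNA in the Ly6c1 values was not tested.

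Ly6c2, the other gene for Ly-6C, went the other way at a much lower level. It had 4.59, 6.96 and 8.997 adjusted TPM in female B cells 1 to 3 and 10.7, 6.37 and 3.22 in male B cells 1 to 3. In T cells it had 1.63, 1.46 and 2.19 in females 4 to 6 and 1.96, 1.64 and 4.66 in males 4 to 6. The cell types overlapped through male T cell 6, which lay above male B cell 3 and female B cell 1. With median-ratio scaling they also overlapped, with 4.47 in male T cell 6 and 3.28 in male B cell 3. With equal totals of 1000000 they did not overlap, since male T cell 6 had 3.21 and the lowest B cell library 4.58. The means were 6.81 ± 2.76 (SD, n = 6) and 2.26 ± 1.21 (SD, n = 6), and the log2 fold change was 1.24 (SE 0.25, adjusted p = 0.00067 in limma). Without both libraries numbered 6 it was 1.47 (adjusted p = 0.00049 in limma). The sum of the monocyte and macrophage genes was also higher in B cells, and its part in the Ly6c2 difference was not tested.

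The pair of Ly-6C genes thus had its balance inverted between the cell types. Ly6c2 made up 95.8% to 98.9% of the summed adjusted TPM of both genes in the 6 B cell libraries and 1.55% to 3.27% in the 6 T cell libraries. The difference log2(Ly6c2 + 1) minus log2(Ly6c1 + 1) averaged 2.69 over the B and -5.02 over the T cell libraries, a change of 7.71 (two-sided exact permutation test of 6 against 6, p = 0.00216, the smallest it can give). Their sum was 3.36 to 10.8 in B cells and 79.1 to 142.7 in T cells. It is not free of the division of reads, since each gene is corrected for its own length and reads may be divided with Ly6a. On the log2(sum + 1) scale B cells were lower by a difference of -3.78 (two-sided exact permutation test, p = 0.00216). The Ly6c2 values in T cells lay beside a Ly6c1 level 29.6 to 63.4 times as high, so that a small share of misassigned reads would be a large part of them. In B cells the mean of Ly6a was 24.4 times that of Ly6c2. The part of misassigned Ly6a reads in the Ly6c2 values was not tested.

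**Figure D2:**
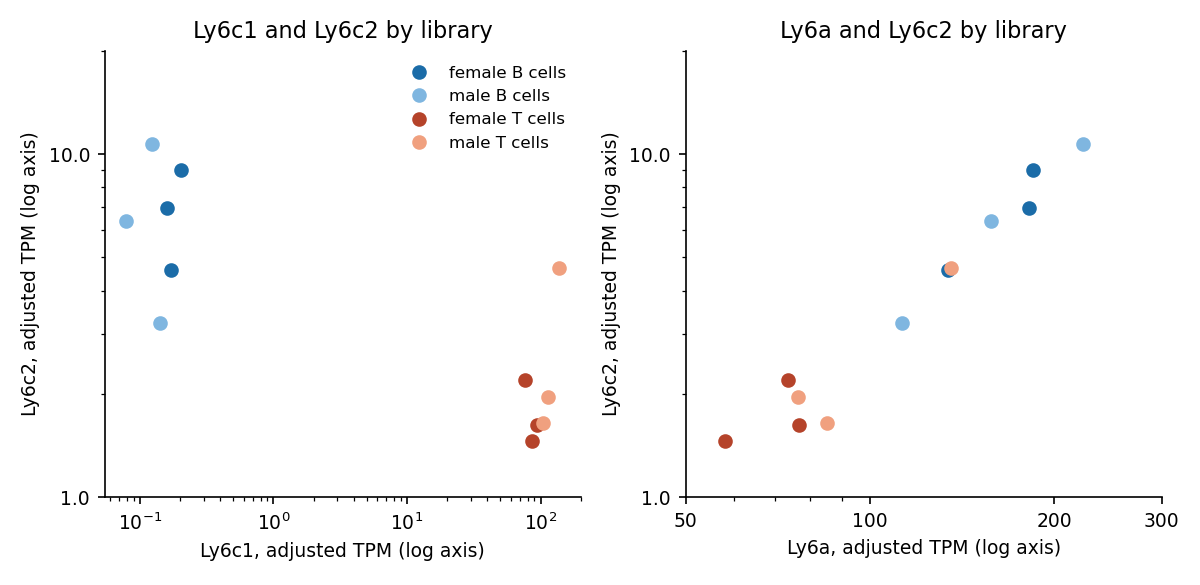
Ly6c2 against Ly6c1 (left) and against Ly6a (right), in adjusted TPM on log axes, 1 point per library. The B and T cell libraries stand in opposite corners on the left, with Ly6c2 between 3.22 and 10.7 and Ly6c1 at most 0.202 in B cells. On the right Ly6a and Ly6c2 rise together over the 6 B cell libraries, and male T cell 6 lies among the B cells.

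Ly6a, which encodes Sca-1, was abundant in both lymphocytes. It had 134, 182 and 185 adjusted TPM in female B cells 1 to 3 and 223, 158 and 113 in male B cells 1 to 3. In T cells it had 76.7, 58.1 and 73.5 in females 4 to 6 and 76.3, 85.2 and 136 in males 4 to 6. Again male T cell 6 alone reached into the range of the B cells. The means were 166 ± 39.4 (SD, n = 6) and 84.3 ± 26.8 (SD, n = 6), and the log2 fold change was 0.98 (SE 0.18, adjusted p = 0.00027 in limma), or 1.13 without both libraries numbered 6. The values of male T cell 6 depended on the scaling. When all libraries were brought to the same total of 1000000, its Ly6a was 93.4 and that of the other T cells 65.8 to 99.1, while the Ly6a of B cells was 134 to 329.8. With median-ratio scaling the Ly6a of male T cell 6 was 130, still above the 115 of male B cell 3.

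Ly6e was the most abundant member in both cell types, above 99.2% of tested genes in B cells and 98.1% in T cells. It had 766, 933 and 663 adjusted TPM in female B cells 1 to 3 and 898, 764 and 715 in male B cells 1 to 3. In T cells it had 322, 261 and 239 in females 4 to 6 and 301.5, 286 and 285 in males 4 to 6. The cell types did not overlap, and the B cell mean (789.7 ± 105, SD, n = 6) was 2.80 times the T cell mean (282 ± 29.2, SD, n = 6). The log2 fold change was 1.48 (SE 0.10, adjusted p = 3.9e-08 in limma).

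Ly6k, the member known from the testis, was low and alike in range in both cell types. It had 1.76, 2.66 and 2.45 adjusted TPM in female B cells 1 to 3, and 2.33, 1.81 and 1.46 in male B cells 1 to 3. In T cells it had 2.41, 2.16 and 1.74 in females 4 to 6 and 1.04, 2.33 and 1.57 in males 4 to 6. The libraries of both cell types were interleaved. The log2 fold change of 0.11 (SE 0.13) was not past the threshold (adjusted p = 0.456 in limma). Tex101, which encodes a testis partner of Ly6k and is named outside the rule for named genes after its values were seen, was at most 0.00191 in every library.

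Ordered by mean level, B cells had Ly6e above Ly6d, then Ly6a, Ly6c2, Ly6k and Ly6c1, and no range of 6 libraries met that of its neighbour. T cells had Ly6e, then Ly6c1, Ly6a, Ly6c2, Ly6k and Ly6d. Each step of these orders was tested in the same libraries by a two-sided exact permutation test of paired signs, where 6 libraries cannot give a p under 0.0313. Ly6c1 was above Ly6a in 6 of 6 T cell libraries although the ranges overlapped, with a mean log2 difference of 0.30 ± 0.23 (SD, n = 6; exact permutation p = 0.0313, adjusted over 10 steps 0.0347). In both libraries numbered 6 the deposited bounds of Ly6c1 and Ly6a overlapped (138 and 136 in the male, 76.9 and 73.5 in the female). The step from Ly6c1 to Ly6a was not tested without these libraries. The division of reads between Ly6c1 and Ly6a is uncertain, and its part in this step was not tested. Ly6c2 was above Ly6k in 3 of 6 T cell libraries, and this step was not past the threshold (0.14 ± 0.62, SD, n = 6; exact permutation p = 0.62 before and after adjustment). The other 8 steps held in 6 of 6 libraries each.

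Within the 6 B cell libraries Ly6a and Ly6c2 ranked the libraries in the same order, from male B cell 3 up to male B cell 1. This relation was picked out after the values were seen, among 30 relations between members, and between each member and the mean of 49 interferon-induced genes, within a cell type. On the log2 scale Pearson's r was 0.98 (exact permutation p = 0.00139, adjusted over 30 relations 0.0417) and Spearman's rho was 1 (exact permutation p = 0.00278, adjusted 0.0833), n = 6. Without male B cells 1 and 3, the libraries farthest from the median, r was 0.94, and r was 0.98 under both other scalings. Each sex has only 3 B cell libraries, too few for a value of its own. The part of stretches shared between the Ly6 genes in this relation was not tested. The mean of the interferon-induced genes had r of 0.85 with Ly6a and 0.90 with Ly6c2 in B cells (adjusted exact permutation p = 0.25 and 0.146, n = 6). In T cells r of Ly6a with Ly6c2 was 0.90 (adjusted exact permutation p = 0.25, n = 6), and -0.72 without female T cell 5 and male T cell 6, so that it rests on those libraries.

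The genes with the most similar profiles were found among 10400 protein-coding genes by the root mean square difference of centred log2 values over the 12 libraries. Ly6a and Ly6c2 were nearest to each other (0.22). Ly6d was nearest to Cd22 and Faim3 (0.16 each), which encode B cell surface receptors with means of 353 and 413 adjusted TPM in B cells. Ly6c1 was nearest to Bcl11b (0.17), a transcription factor gene of T cells with a mean of 94.3 in T cells, and then to Dapl1 (0.20). Ly6e was nearest to Susd3 and Plp2 (0.11 each), whose B cell means were 34.1 and 39.0 against 11.5 and 13.02. The second neighbour was Ccdc28b for Ly6a (0.25) and Cks2 for Ly6c2 (0.23), and Ly6k was nearest to Isg20 and Dgcr6 (0.16 each). Genes that separate the cell types sharply are near each other on this measure whatever else they do.

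Between females and males, 0 of 6 members were past the threshold in B cells, where 0.144% of tested genes were, and 0 of 6 in T cells, where 0.104% were. The difference between the sex effects of the cell types passed for 0 of 6 members and 0.0% of tested genes, with 295 genes at an unadjusted p under 0.05 and a smallest adjusted p of 0.0855. At an unadjusted p under 0.05 stood 0 members in B cells, where 373 of 12520 tested genes did, and 1 in T cells, where 319 did. For the difference between the sex effects 1 member, Ly6c1, was under it (unadjusted p = 0.0034, adjusted p = 1.00 in limma). In B cells the log2 differences ran from -0.11 for Ly6d to 0.20 for Ly6k.

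The member with an unadjusted p under 0.05 was Ly6c1 in T cells. Its 3 male libraries (104 to 138) lay above its 3 female libraries (76.9 to 93.9), and the male library was the higher one for each of the numbers 4, 5 and 6. The female mean was 85.7 ± 8.47 (SD, n = 3) and the male mean 118 ± 17.6 (SD, n = 3). The log2 difference, female minus male, was -0.46 (SE 0.10, unadjusted p = 0.00087, adjusted p = 0.363 in limma), and a two-sided exact permutation test gave p = 0.1, the smallest that 3 against 3 can give. The separation depended on the scaling, since with equal totals of 1000000 the males had 95.0 to 121 and the females 96.2 to 104, a log2 difference of -0.16. It was -0.27 without both libraries numbered 6. The sum of Ly6c1 and Ly6c2 gave -0.46 on the log2 scale (two-sided exact permutation p = 0.1, n = 3 against 3), and -0.17 with equal totals (exact permutation p = 0.4). In B cells Ly6c1 was at 0.159 to 0.202 in females and 0.0791 to 0.142 in males, with deposited bounds that overlap.

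Ly6a had a log2 difference of -0.47 (SE 0.25, adjusted p = 1.00 in limma) between female and male T cells, and the sexes overlapped in range. That difference was -0.27 without both libraries numbered 6. For Ly6c2 it was -0.37 (SE 0.36) and -0.14 without them. Ly6e and Ly6d had -0.10 (SE 0.15) and 0.17 (SE 0.12), and Ly6k had 0.25 (SE 0.18). The standard errors ran from 0.12 to 0.36. None of these differences was past the threshold, and none of the values shows that the sexes are alike.

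The wider Ly6 and urokinase receptor family was mostly under the filter in these cells. Its list holds 48 genes, of which the table has 41 and the filter kept 11, among them the 6 members, and 9 of the 11 passed the threshold, against 73.0% of all tested genes, with 7 towards B cells and 2 towards T cells (31.4% and 41.6% of all tested genes). Like Ly6d and Ly6c1, 2010109I03Rik and Lypd6b were under 1 in every library of the other cell type and passed the filter only through the cell type where they are high. The median log2 fold change of the 11 was 1.06, against -0.09 over all tested genes. Lynx1, a modulator of nicotinic acetylcholine receptors that lies beside Ly6d, had 37.3 ± 5.88 (SD, n = 6) adjusted TPM in B cells, where T cells had 1.32 ± 0.137 (SD, n = 6), a difference of 4.03 on the log2 scale (SE 0.10, adjusted p = 5.1e-13 in limma). Plaur, the urokinase receptor gene, had means of 29.8 and 1.30 and a log2 fold change of 3.74. Lypd6b had the reverse pattern, with a B cell mean of 0.0020 against 15.4 (log2 fold change -4.01). 2010109I03Rik was higher in B cells (1.06), and Slurp1 was not past the threshold (-0.02, adjusted p = 0.825 in limma). Among genes named after their values were seen, Ly6g, the antigen of neutrophils, was at most 0.00285 in every library, and Ly6i, whose coding region was 86.4% identical to that of Ly6a, was at most 0.513.

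**Figure D3:**
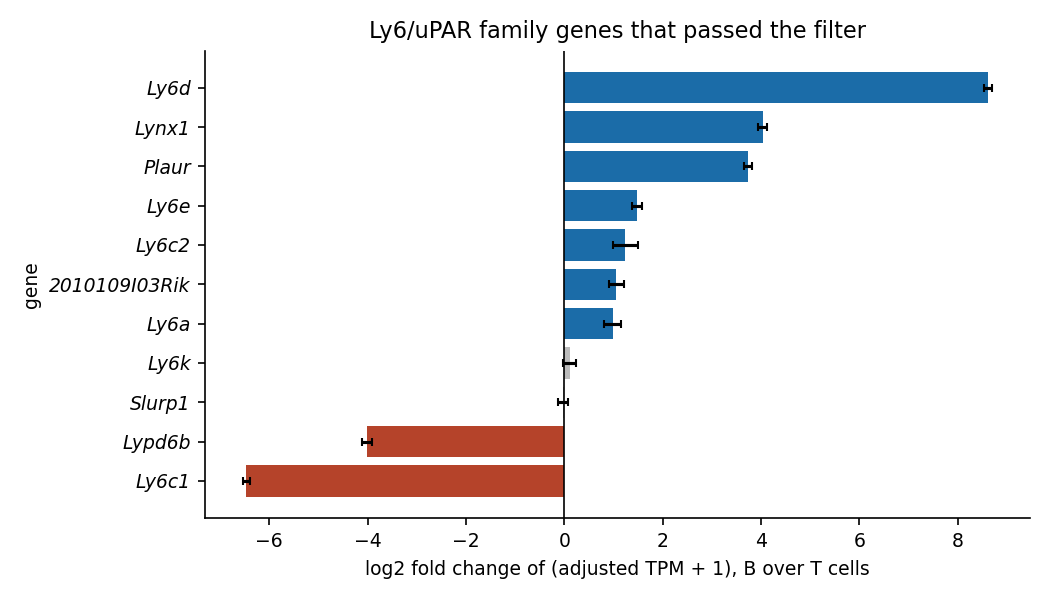
Log2 fold change of (adjusted TPM + 1), B over T cells, for the 11 family genes that passed the filter. Bars start at 0, whiskers are 1 SE from limma, blue and red are past the threshold and higher in B or T cells, and grey is not past it. The values run from 8.62 for Ly6d to -6.47 for Ly6c1.

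Neighbouring genes in the cluster went in both directions. Of 40 other genes between the outermost members or within 250 kb of them, 6 passed the filter and 4 were past the threshold, a share near the 73.0% of all tested genes. Lynx1, 2010109I03Rik and Them6 were higher in B cells and Arc in T cells (log2 fold change of Arc -1.24). Arc and 2010109I03Rik passed the filter only through that cell type. Ly6c1, higher in T cells, lies between Ly6a and Ly6c2, which were both higher in B cells.

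The anchor itself is made by a pathway that both cell types expressed at overlapping summed levels. Of 28 tested genes of GPI anchor assembly, 19 were past the threshold, 8 towards B cells and 11 towards T cells, with a median log2 fold change of -0.14. That share is near the 73.0% of all tested genes. With equal totals 12 of 28 were past the threshold, 10 towards B cells and 2 towards T cells, with a median of 0.20. Over all genes 7108 of 13016 then were, 5087 and 2021, with a median of 0.26. The direction of the group thus depended on the scaling, as it did over all genes. The sum of the assembly genes was 381 to 399.9 in B cells and 377 to 401 in T cells. The largest change was in Pgap1, an enzyme that remodels the anchor after its transfer to protein, with a B cell mean of 62.03 against 9.28 (log2 difference 2.62, SE 0.08, adjusted p = 8.7e-12 in limma). Pigg, which adds ethanolamine phosphate, had 0.44. Pigx, a subunit of a mannosyltransferase, and Pigp, a subunit of the complex of the first step, were higher in T cells (-1.50 and -0.89).

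Genes listed for other GPI-anchored surface proteins of lymphocytes also went in both directions. The list also holds Tnfrsf10b (log2 fold change -0.62), a receptor gene whose protein spans the membrane without such an anchor. The counts were made with it in the list. Of 16 tested genes, 14 were past the threshold, 6 towards B cells and 8 towards T cells, with a median of -0.19. With equal totals 7 and 7 were, with a median of 0.11, where of all 13016 genes 5087 and 2021 were, with a median of 0.26. Over all tested genes as deposited 73.0% were past it. Of the 16, 8 passed the filter only through the cell type where they are high, Thy1, Art2b and Sema7a among them. Cd24a, the heat-stable antigen, had a log2 fold change of 7.49 and Sema7a, a semaphorin gene, of 3.50. Thy1, the classical antigen of mouse T cells, had -7.74, and Art2b, an ADP-ribosyltransferase gene, had -4.51. Cd24a (means of 380 and 1.12) and Thy1 (means of 0.0705 and 228) thus separated the cell types on the same scale as Ly6d and Ly6c1.

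Because Ly6a, Ly6c1, Ly6c2 and Ly6e are known to be raised by interferon, interferon-induced genes outside the family were counted. Of 49 tested, 39 were past the threshold, 11 towards B cells and 28 towards T cells, with a median log2 fold change of -0.48. Over all tested genes 73.0% were past it, also more of them towards T cells (41.6% against 31.4%). With equal totals 33 were, 12 and 21, with a median of -0.12. Over all genes 7108 of 13016 then were, 5087 towards B cells and 2021 towards T cells. The median over all genes was then 0.26, against -0.09 as deposited. Iigp1 and Ifit1 had the largest changes towards T cells (-4.02 and -2.63), and Gbp3 and Mx1 towards B cells (2.21 and 1.69).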

How the data were processed

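RNA from purified cells was depleted of ribosomal RNA and sequenced as stranded libraries, per the labels. The authors deposited 1 table of 41128 genes with adjusted TPM, a signal of TPM rescaled between libraries, as a point estimate with lower and upper bounds. The submitters' processing notes name Trim Galore, FastQC, STAR and mm10. The quantifier, the rescaling and the level of the bounds are not given in the sources used here. Female B cell 1 has a total of 1000000 and the other libraries other totals. Values are not counts, so limma 3.58.1 (R 4.3.3) was fitted to log2(adjusted TPM + 1) of the 12 libraries, each group with its own mean, using limma's trend option. The filter kept the 12520 genes that reached 1 adjusted TPM in 3 libraries or more, and the threshold was a Benjamini-Hochberg adjusted p of 0.05 over all of them. The fit was tested on simulated data. Exact permutation tests used scipy 1.17.1 under Python 3.11.15 and alignments Biopython 1.88. Gene IDs were matched without version to GENCODE M21 (40254 of 41128, 97.87%), and all transcripts the table lists for the members were found there. The transcript version was the same for 2 of 6 in Ly6a, 1 of 7 in Ly6c1 and 2 of 4 in Ly6c2. It was the same for 4 of 16 in Ly6e, 1 of 1 in Ly6d and 1 of 2 in Ly6k. Shared stretches were counted in the M21 versions, which can differ from those quantified. Promoters came from RefSeq, where 2 of 6 members matched.

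The members and gene lists were chosen with earlier results of these data known. Named genes are the 6 members, every tested family gene, the 2 largest changes past the threshold in each direction of each list, and the 2 nearest profiles of each member. The summed levels of the other fixed marker lists, in B and in T cells, were 0.429 to 2.37 and 0.106 to 2.88 for 4 neutrophil genes, 0.383 to 1.47 and 0.517 to 1.19 for 4 natural killer cell genes, 84.7 to 101 and 87.6 to 97.1 for 4 endothelial genes, 49.7 to 64.1 and 26.5 to 32.8 for 3 plasma cell genes, 56.0 to 62.03 and 29.7 to 44.5 for 4 plasmacytoid dendritic cell genes, and 78.2 to 95.8 and 0.0904 to 0.185 for 3 genes of immature B cells. Several of these sums came mostly from single genes. Pecam1 had means of 92.0 and 91.4, and Cdh5, Kdr and Egfl7 were at most 0.504. Xbp1 had 50.1 and 27.0 of the plasma cell sum. Of the immature B cell genes, Vpreb3 had 75.3 and 0.0966, Cd93 8.48 and 0.0212, and Rag1 1.12 and 0.00759. Of the plasmacytoid dendritic cell genes, Tcf4 had 41.5 and 0.659, Bst2 16.3 and 34.5, and Siglech at most 0.00180.

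The labels number the libraries 1 to 3 in B cells and 4 to 6 in T cells of each sex. Over genes, deviations from the group mean of same-numbered female and male libraries correlated with r of 0.72, 0.55 and 0.52 in T cells and of -0.17, -0.04 and -0.34 in B cells. Same-numbered libraries thus varied together in T cells but not in B cells. The sample titles give only the number, so a pairing of libraries is not established. A fit with the number as a block was an alternative.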

Additional observations from a re-analysis of the deposited data

Results flagged for a closer look

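In each cell type the highest and the lowest library of every member was compared with the other libraries, 12 sets of 6 libraries in all, and chance picks out about 1 set in 20. In T cells Ly6c2 stood out in male T cell 6, with 4.66 adjusted TPM against 1.46 to 2.19 in the others (3.21 against 1.65 to 2.74 with all libraries brought to equal totals of 1000000). In T cells Ly6d stood out in female T cell 6, with 0.566 against 0.0757 to 0.221. Both libraries carry the number 6 and the higher sums of regulatory T cell genes and of memory or activation genes. Their part in these values was not tested. As deposited, the sex effect of Ly6c1 went opposite ways without overlap in both cell types. It was higher in females in B cells, at values near 0 of at most 0.202 with wide bounds, and higher in males in T cells. With equal totals the sexes overlapped in both. Male B cell 3 then had 0.202 and female B cell 1 0.170, and male T cell 6 had 95.0 and female T cell 6 96.2. As deposited, the difference between the sex effects was 0.53 on the log2 scale (SE 0.15, adjusted p = 1.00 in limma), which was not past the threshold, and 0.35 without both libraries numbered 6.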

How the results depend on the processing

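In B against T cells the direction and call of Ly6a, Ly6c1, Ly6c2, Ly6d and Ly6e were the same in all 21 alternatives, and Ly6k was past the threshold in 1, the rescaling of every library to a total of 1000000 (0.37, adjusted p = 0.0424 in limma). That rescaling moved the median over the tested genes from -0.09 to 0.26 on the log2 scale, and relative to this median Ly6k was at 0.11, Ly6a at 1.10 and Ly6e at 1.60. It also left 12 instead of 19 genes of GPI anchor assembly past the threshold, and of all genes 5087 were higher in B and 2021 in T cells, against 3926 and 5208. Median-ratio scaling gave 4536 and 4514. Without the filter on low values, 20 of 41 family genes, 26 of 30 GPI-anchored surface genes and 23 of 40 cluster neighbours were past the threshold. So were 24591 of 41128 genes in all, which includes genes near 0 that the filter leaves out. Ly6c1 then also passed for the sexes in T cells (1 member, adjusted p = 0.00815 in limma) and for the difference of sex effects (1 member, adjusted p = 0.0202 in limma), where 10607 and 11201 genes passed, and 10985 passed for the sexes in B cells. The cause was not tested. The adjusted p of Ly6c1 for the sexes in T cells was at least 0.29 in the other alternatives. All-gene counts for the sexes were also 5 in B cells alone, 44 in B and 26 in T cells with that rescaling (20 for the difference of effects), 24 (and 1 for the difference) with a pseudocount of 0.1, 8 in T cells with the lower bounds, 11 in B cells without female B cell 3, 8, 7 and 7 in T cells without female T cells 4, 5 and 6 (1 for the difference without the last of these) and 3 for the difference with no trend.

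Sex differences that were not past the threshold changed sign for Ly6a in B cells (-0.0087) and Ly6e in T cells (0.20) and its difference of effects (-0.28) with that rescaling, and for the difference of effects of Ly6k with the upper bounds (0.028). Leaving out 1 library at a time gave 5 members, 9 family genes, 19 to 22 assembly, 13 to 15 anchored surface and 38 to 40 interferon-induced genes and 4 neighbours past the threshold in B against T cells, and 0 members for the sexes. It gave -0.18 to 0.31 for Ly6a, -0.28 to 0.45 for Ly6c2 and -0.15 to 0.10 for Ly6e between the sexes in B cells, and -0.049 to 0.20 for Ly6e and -0.23 to 0.12 for Ly6k in the difference of effects. The sum of Ly6c1 and Ly6c2 was then at -3.91 to -3.62 in B against T cells and -0.55 to -0.34 between the sexes in T cells, and the balance of the pair at 7.57 to 7.87.

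The replicate block kept 5 members past the threshold in B against T cells (Ly6c2 at adjusted p = 0.00235 and Ly6a at 0.00125 in limma) and 0 for the sexes, and changed no call of a member. In T cells alone with the block, 5 genes in all were past it. The fits in 1 cell type with the block and the fits without both libraries numbered 6 were chosen after seeing the data, and the latter gave 9170 genes in B against T cells, 7 between the sexes in T cells and 1 for the difference. No member was under the filter, so the test planned for such members was not run. Depth is unknown, and the deposited bounds of Ly6c1 overlap between all B cell libraries.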
